A study of Mus musculus with 32 samples.

Results

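The genes described here are 8 markers by which homeostatic microglia, the resident macrophages of the healthy brain, are commonly recognised: Tmem119, Siglech, Selplg, Slc2a5, Olfml3, Sparc, Aif1 and Crybb1. They were taken by symbol from a table of exon counts for 24411 genes. Each matched 1 row, none overlapped another gene, and all 8 passed the filter on low counts in each of 11 comparisons. Microglia keep their homeostatic state through signals of the brain, among them TGF-beta and the ligands of the receptor CSF1R, and lose much of it in culture and in disease. Its markers are used to identify the cells by antibody and by transcript. At the cell surface, Tmem119 encodes a single-pass membrane protein used to tell microglia from other myeloid cells, and Siglech a sialic acid-binding lectin that signals through the adaptor encoded by Tyrobp. Selplg encodes PSGL-1, the leukocyte ligand of P-selectin, and Slc2a5 the fructose transporter GLUT5. Olfml3 and Sparc encode secreted glycoproteins, of the olfactomedin family and of the collagen-binding matricellular proteins, and Sparc is also made by astrocytes and vascular cells. Aif1 encodes IBA1, an actin- and calcium-binding protein, and Crybb1 a beta-crystallin first known from the lens. The products of these last 2 genes are cytoplasmic, so for them the description as surface or secreted does not hold.

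Brains of 2 mouse lines on the C57BL/6 background were compared, with the genotypes Cx3cr1-CreER:RPL22-HA and Sall1-CreER:RPL22-HA. In both, a tamoxifen-inducible Cre switches on a haemagglutinin (HA) tag on the ribosomal protein RPL22, and an anti-HA antibody then recovers ribosomes of recombined cells with their RNA. Every mouse, controls included, carried the RPL22-HA allele and had received 4 gavages of 5 mg tamoxifen on alternate days when 4 to 6 weeks old. Each of 4 brains per line was divided among 4 preparations, which gives 32 libraries of polyadenylated RNA in 8 groups of 4. Sort denotes microglia isolated by digestion, Percoll and flow cytometry, SortIP such microglia followed by anti-HA precipitation, HA precipitation straight from brain homogenate in the presence of cycloheximide, and IgG the same with an IgG1 isotype control. Cx3cr1 is active in border macrophages and blood monocytes as well as in microglia, which limits that line as a model of microglia alone. The labels conflict for the 8 libraries of sorted Cx3cr1 cells: what title and antibody name as Sort, the description names as SortIP, and the reverse. These groups follow the titles here and are written "titled Sort" and "titled SortIP". The main tests of the 8 genes that rest on them are also given by description or with both sorted libraries of a mouse added together. Tests of other genes are given by title or with such sums only.

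In the mm9 build used for the table, Tmem119 lies at chromosome 5, 114243738 to 114250361, minus strand, and Selplg 17445 bases from it on the same chromosome and strand (114267807 to 114280510). Siglech is at chromosome 7, 63023554 to 63034295, plus strand, and Slc2a5 at chromosome 4, 149493453 to 149518277, plus strand. The gene of Olfml3 spans chromosome 3, 103539317 to 103541924, minus strand, and that of Sparc chromosome 11, 55207661 to 55233582, minus strand. Aif1 is at chromosome 17, 35307937 to 35312946, minus strand, and Crybb1 at chromosome 5, 112684840 to 112698605, plus strand. All values below are sums over the exons of these genes, so they do not tell isoforms apart.

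Sequence before the transcription start was available from RefSeq (build GRCm38.p6) for 6 of the 8 genes, and it is shown for Aif1 and Siglech, the genes whose levels in Cx3cr1 HA lay furthest above and below the summed sorted libraries of the same mice. Each stretch is 250 bases long and ends at the base before the start: chr17:35176053-35176302 on the minus strand for Aif1 and chr7:55767934-55768183 on the plus strand for Siglech. Capitals mark the match of a motif named below them.
Aif1: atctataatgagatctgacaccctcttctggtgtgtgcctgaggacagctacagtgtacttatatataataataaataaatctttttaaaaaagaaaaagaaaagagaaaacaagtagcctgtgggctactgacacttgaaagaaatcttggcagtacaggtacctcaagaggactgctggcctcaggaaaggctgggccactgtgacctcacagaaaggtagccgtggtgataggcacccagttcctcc
Siglech: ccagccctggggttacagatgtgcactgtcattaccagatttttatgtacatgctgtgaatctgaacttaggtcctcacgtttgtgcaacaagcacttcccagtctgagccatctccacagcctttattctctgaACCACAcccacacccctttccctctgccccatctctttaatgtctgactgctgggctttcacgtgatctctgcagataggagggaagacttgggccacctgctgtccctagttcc
Motifs were searched on both strands from 250 bases before the start to 50 after it, over 32851 promoters of the same length. The PU.1-type motif AGGAAGT was present in 9.35% of all promoters and in 0 of the 6, the MEF2-type motif (CTA and TAG separated by 4 bases) in 3.69% and 0, and the AP-1-type motif TGANTCA in 7.81% and 0. The RUNX-type motif TGTGGT was present in 16.8% of all promoters and in 3 of the 6, those of Sparc, Slc2a5 and Siglech. In Siglech it lies 115 bases before the start, on the opposite strand, and so reads ACCACA in the sequence shown. A match describes these letters and shows no binding, and no match says only that the letters are not in the window.

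Cx3cr1 HA libraries had 286418 to 574671 gene counts each, while Sall1 HA had from 1894943 to 3027342 in Sall1 HA. Over all 32 libraries the range was 249881 to 4047465. Of 26 further homeostatic microglia genes, the summed level was between 100984 and 154525 CPM (counts scaled to a library total of 1e+06 gene counts) in the 16 sorted libraries. It was 136856 to 152320.0 CPM in Cx3cr1 HA, 18533 to 21663 CPM in Sall1 HA and between 2951 and 4046 CPM in IgG. Sorted cells thus carried the defining markers of microglia. Markers of monocytes, neutrophils and lymphocytes summed to between 0 and 196 CPM over the 32 libraries. In the sorted libraries the 17 astrocyte markers summed to at most 820.4 CPM. In such bulk libraries fewer cells of a type and less RNA per cell cannot be told apart.

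All 8 genes were abundant in sorted microglia and in Cx3cr1 HA, low in both IgG groups, and between these in Sall1 HA, except that Siglech in Sall1 HA overlapped its IgG level. Together they took 2.52 ± 0.107% of gene counts in titled Cx3cr1 Sort (mean ± SD, n = 4 mice, as for all levels below), 1.93 ± 0.113% in titled SortIP and 1.94 ± 0.0938% in Cx3cr1 HA, against 0.0850 ± 0.0168% in Cx3cr1 IgG. In the Sall1 line the shares were 1.84 ± 0.175% in Sort, 2.23 ± 0.0373% in SortIP, 0.373 ± 0.0336% in HA and 0.0800 ± 0.0105% in IgG. The 4 sorted means thus lay between 1.84 and 2.52%, and the share in direct HA was far smaller in the Sall1 than in the Cx3cr1 line.

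**Figure D1:**
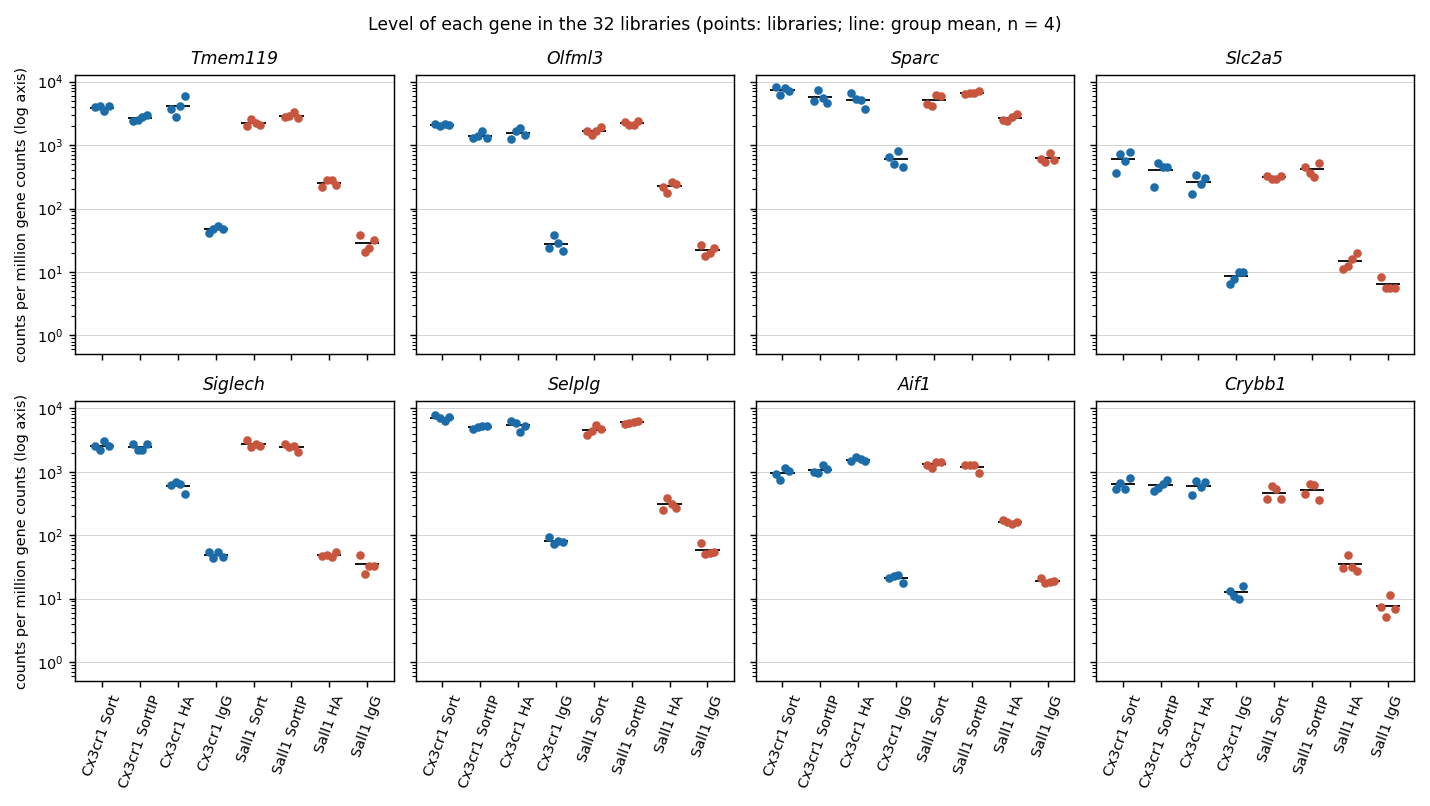
Level of each of the 8 genes in all 32 libraries, in CPM on a log axis, with blue points for libraries of the Cx3cr1 line, red points for the Sall1 line and a line at each group mean (n = 4). All 8 genes are high in sorted cells and in Cx3cr1 HA and low in IgG, with Sall1 HA between, and the 4 points of Siglech in Sall1 HA overlap those in Sall1 IgG.

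Over the 16 sorted libraries of both lines, Tmem119 ranged from 1964 to 4201 CPM, Selplg from 3748 to 7732 CPM, Siglech from 2057 to 3172 CPM and Slc2a5 from 219 to 778 CPM. The transporter gene was the most variable of these, and Siglech the least. Of the secreted products, Olfml3 ranged from 1289.6 to 2439.5 CPM and Sparc from 4132 to 8169 CPM. Aif1 ranged from 737 to 1417 CPM, and Crybb1 from 357 to 805 CPM. Group means of Siglech were 2578 ± 355 CPM in titled Cx3cr1 Sort, 2469 ± 308 CPM in titled SortIP, 2711 ± 338 CPM in Sall1 Sort and 2454 ± 291 CPM in Sall1 SortIP, which overlap one another. Group means of Slc2a5 in the same order were 603 ± 184, 410.3 ± 134, 310.0 ± 21 and 415 ± 93.5 CPM, those of Crybb1 634 ± 131, 609.5 ± 105, 468 ± 115 and 515 ± 136 CPM.

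Levels of different genes were compared per kilobase of the transcript length in the table. In titled Cx3cr1 Sort the order from the top was Sparc (2813 ± 341 CPM per kb), Selplg (2709 ± 233), Tmem119 (1887 ± 153), Olfml3 (1210.2 ± 42.2), Siglech (1173 ± 162), Aif1 (1112 ± 198), Crybb1 (735 ± 152) and Slc2a5 (196 ± 59.8 CPM per kb). The 4 libraries of neighbours in this order were separate only between Selplg and Tmem119, Tmem119 and Olfml3, and Crybb1 and Slc2a5. Slc2a5 was the lowest per kilobase in every one of the 8 groups. In Cx3cr1 HA, Selplg (2095 ± 343 CPM per kb), Tmem119 (2003 ± 649), Sparc (1978 ± 463) and Aif1 (1801 ± 121) headed the order, and each overlapped the next. Siglech, the fifth gene in titled Sort, was seventh there at 270.4 ± 45.3 CPM per kb, below all Crybb1 values and above all of Slc2a5.

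In Sall1 HA Sparc led alone. It stood at 1022 ± 126 CPM per kb, apart from Aif1 at 186 ± 8.66, while Olfml3 (129.9 ± 21.1), Tmem119 (123 ± 14.4) and Selplg (117 ± 23.8) overlapped one another in turn. Of the counts of the 8 genes, Sparc made up 71.9 ± 2.91% in Sall1 HA, 26.8 ± 5.50% in Cx3cr1 HA, and 77.8 ± 4.03% in the isotype control of the Sall1 line. For the 4 sorted groups its mean share of them was between 27.9 and 29.7%. The Sparc share in Sall1 HA thus lay nearer to that of the isotype control than to that of sorted cells.

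Direct HA was compared with IgG to see how far each marker was recovered above the unspecific background. In the Cx3cr1 line all 8 genes were higher in HA, by between 3.52 (Sparc) and 6.86 (Tmem119) on the log2 scale, with a median of 6.08 against -0.28 for all 10021 genes tested. A gene was called at an adjusted p under 0.05, and 28.6% of all genes were called higher. For each of the 8, all 4 HA libraries lay above all 4 IgG libraries, which held for 19% of all genes. The 8 libraries of this comparison come from the same 4 mice, HA and IgG of each.

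Among the surface proteins, Tmem119 stood at 3762, 2738, 4155 and 5963 CPM in Cx3cr1 HA of mice 1, 2, 3 and 4, in which order all values of this line are given, and at 41.8, 47.0, 52.5 and 46.9 CPM in IgG. The rise of 6.86 ± 0.27 (log2 fold change ± SE; adjusted p = 7.55e-12) ranked 16 of 10021. Mouse 4 had the highest Tmem119 level in HA, more than 2 times that of mouse 2. Selplg reached 6367, 5849, 4281 and 5289 CPM in HA against 92.2, 71.6, 80.7 and 79.4 CPM in IgG, a rise of 6.48 ± 0.22 (adjusted p = 4.44e-12). Its 4 HA libraries lay closer together than those of Tmem119. Slc2a5, far less abundant, had 172, 343, 248 and 304 CPM in HA and 6.36, 7.69, 9.87 and 9.98 CPM in IgG, and rose by 5.35 ± 0.28 (adjusted p = 1.43e-10). Siglech gave 616, 679, 631 and 450.4 CPM in HA and 53.6, 42.9, 54.7 and 44.7 CPM in IgG. Its rise of 4.01 ± 0.21 (adjusted p = 1.20e-10) was the smallest of the surface markers.

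Of the secreted products, Olfml3 was at 1258, 1646, 1890.5 and 1428 CPM in HA and 24.1, 37.6, 28.7 and 21.3 CPM in IgG, a rise of 6.2 ± 0.25 (adjusted p = 1.00e-11). Sparc had 6619, 5405, 5118 and 3659 CPM in HA but also 648, 504, 803 and 455 CPM in IgG, and rose by 3.52 ± 0.24 (adjusted p = 3.58e-09). Per kilobase, its IgG level of 229 ± 59.7 CPM per kb was separate from and above those of the other 7 genes. Mouse 4, highest for Tmem119, was lowest for Sparc and Siglech. Of the cytoplasmic pair, Aif1 was at 1474, 1682, 1606 and 1469.9 CPM in HA against 21.4, 22.7, 23.3 and 17.8 CPM in IgG (6.59 ± 0.21, adjusted p = 3.89e-12). Crybb1 was at 432, 709.7, 571 and 691 CPM against 13.2, 10.9, 9.87 and 16.1 CPM (5.97 ± 0.25, adjusted p = 1.71e-11). In neither gene did HA and IgG come near each other.

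In the Sall1 line all 8 genes were again higher in HA than in IgG, by between 0.88 (Siglech) and 3.72 (Olfml3), with a median of 2.73 against -0.03 for 11545 genes. Of all genes 35.2% were called higher. HA and IgG libraries were separate for 7 of the 8, all above, a state found for 22.3% of all genes, and overlapped for Siglech. Tmem119 had 279, 239, 222 and 283 CPM in HA of mice 7, 9, 17 and 21, the order kept for this line, against 24.1, 31.6, 38.5 and 21 CPM in IgG, a rise of 3.51 ± 0.20 (adjusted p = 1.22e-10). For Selplg, 315, 272, 247 and 388 CPM in HA stood against 52.5, 53.9, 76.3 and 49.8 CPM in IgG, a rise of 2.78 ± 0.20 (adjusted p = 1.89e-09). Both surface genes were thus recovered above background, at levels far below those of sorted cells.

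The fructose transporter gene Slc2a5 stood only a little above its background, at 15.8, 20.1, 11.1 and 12.6 CPM in Sall1 HA and 5.68, 5.68, 8.36 and 5.66 CPM in IgG (1.59 ± 0.30, adjusted p = 0.000129). Siglech was at 45.9, 54.0, 46.5 and 48.6 CPM in HA and 32.7, 33.1, 47.8 and 24.4 CPM in IgG, so that in mouse 17 the HA library lay below its own IgG library. Its rise of 0.88 ± 0.21 (adjusted p = 0.00128) was not called with library totals in place of TMM factors (0.48, adjusted p = 0.0523). The secreted markers were well separated from IgG. Olfml3 had 259, 244, 221 and 175 CPM in HA and 19.9, 23.5, 26.8 and 18.1 CPM in IgG (3.72 ± 0.20, adjusted p = 4.90e-11). Sparc had 2761, 3128, 2446 and 2416 CPM in HA and 764, 592, 599.9 and 538 CPM in IgG (2.51 ± 0.16, adjusted p = 5.20e-10). In each Sall1 mouse Sparc was therefore more than 3 times as high in HA as in IgG. Aif1 reached 153, 159.8, 171 and 162 CPM against 18.5, 18.8, 21.1 and 17.6 CPM (3.48 ± 0.17, adjusted p = 2.76e-11), with the smallest SD of the 8 genes relative to its mean in HA. Crybb1 reached 31.7, 27.4, 30.8 and 48.2 CPM against 11.4, 6.92, 7.36 and 5.10 CPM (2.68 ± 0.28, adjusted p = 1.62e-07), on IgG counts of only 8 to 28 reads per library.

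The enrichment of HA over IgG was smaller in the Sall1 than in the Cx3cr1 line for all 8 genes, by an interaction term fitted to the 16 libraries from homogenate. The difference of log2 fold changes was -3.80 ± 0.39 for Slc2a5, -3.74 ± 0.27 for Selplg and -3.39 ± 0.30 for Tmem119. It was -3.33 ± 0.36 for Crybb1, -3.17 ± 0.28 for Siglech, -3.15 ± 0.23 for Aif1 and -2.51 ± 0.29 for Olfml3. Sparc, with -1.05 ± 0.28 and an adjusted p of 0.00484, differed least, and its adjusted p was the largest of the 8. Their median was -3.25 against 0.15 for 12308 genes, and 13.7% of all genes were called lower. A direct comparison of the HA libraries, given next, uses the same 8 HA libraries and is not independent of it.

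**Figure D2:**
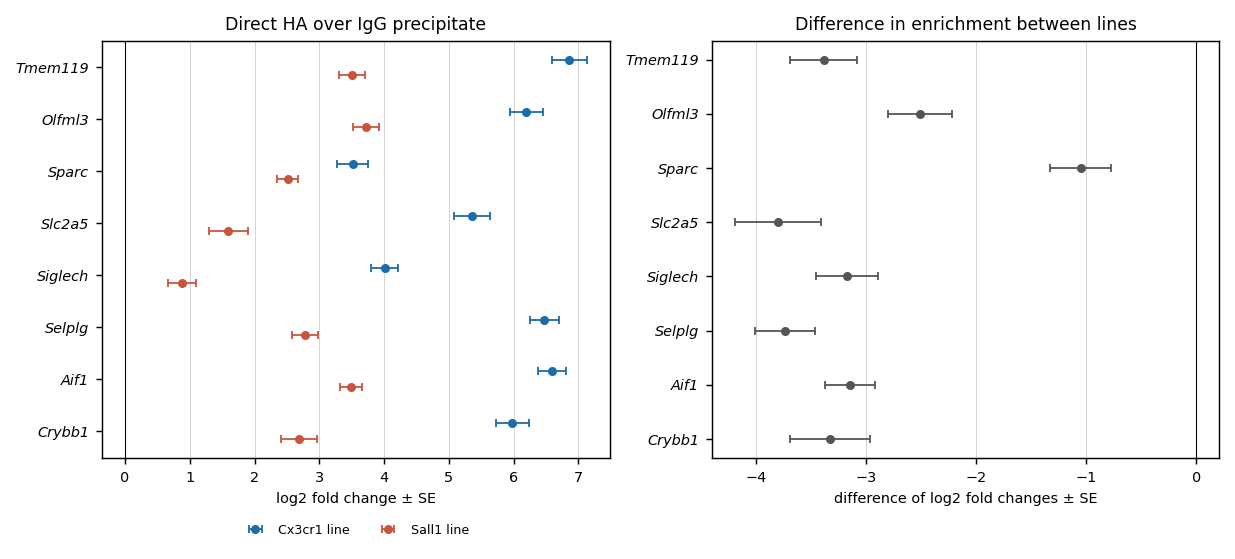
Left, log2 fold change of direct HA over IgG for each gene in the Cx3cr1 line (blue) and the Sall1 line (red), with bars of 1 SE (n = 4 mice per line). Right, the difference between the lines with its SE, which is below 0 for all 8 genes and nearest to 0 for Sparc (-1.05).

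Directly compared, Sall1 HA was lower than Cx3cr1 HA for all 8 genes, with all 4 Sall1 libraries below all 4 Cx3cr1 libraries each time. Of 9092 genes tested, 25.7% were called lower and 18.8% were so separated. Selplg (-4.34 ± 0.19), Slc2a5 (-4.34 ± 0.24), Crybb1 (-4.29 ± 0.22) and Tmem119 (-4.21 ± 0.22) were lower by 4 or more on the log2 scale. Siglech (-3.80 ± 0.18), Aif1 (-3.46 ± 0.16) and Olfml3 (-2.99 ± 0.18) came next, and Sparc (-1.14 ± 0.17, adjusted p = 3.01e-06) was the least lowered. Astrocyte markers moved the other way: the 17 genes summed to 20974 to 23067 CPM in Sall1 HA, 1802 to 2267 CPM in Cx3cr1 HA and 5653 to 7616 CPM in Cx3cr1 IgG, none at 0. The 10 oligodendrocyte markers summed to 10052 to 12312 CPM in Sall1 HA and 1491 to 2163 CPM in Cx3cr1 HA. For 12 markers of mural cells and fibroblasts the sums were 692 to 1113 and 99.2 to 115 CPM. Endothelial markers summed to only 16.9 to 27.4 CPM in Sall1 HA, with Tek and Slco1a4 at 0 counts, and to 30.6 to 59.4 CPM in Cx3cr1 HA. The sums of 12 neuronal markers were 1524 to 1900.0 CPM in Sall1 HA and 927 to 1612 CPM in Cx3cr1 HA. In Cx3cr1 and Sall1 IgG the neuronal sums were 8356.5 to 10916 and 8143 to 9706 CPM, above both HA groups. In the same order, IgG sums were 5589 to 6828 and 4350 to 5588 CPM for oligodendrocyte markers. They were 154 to 289 and 225 to 571 CPM for endothelial markers. For mural cells and fibroblasts they were 267 to 366 and 321 to 480 CPM. Sparc is known from astrocytes and vascular cells, and the part of these cells in its level was not tested.

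Further microglial genes gave a background for these values. Of 25 other homeostatic microglia genes tested, 24 were higher in Cx3cr1 HA than in IgG, 0 were lower and 1, Gpr34, was not called. In the Sall1 line 20 of 25 were higher and 4 lower, beside 4064 higher and 4166 lower of 11545 genes. The 4 of 25 thus lie below the share called lower among all genes. These 4 were the purinergic receptor genes P2ry12 (-2.65 ± 0.35) and P2ry13 (-1.05 ± 0.32), Gpr34 (-3.51 ± 0.55) and Ly86 (-0.73 ± 0.26). All 25 were lower in the interaction. The driver genes themselves rose over IgG by 3.88 ± 0.22 (Cx3cr1) and 3.52 ± 0.24 (Sall1) in the Cx3cr1 line and by 0.69 ± 0.17 and 1.37 ± 0.26 in the Sall1 line. Perivascular and border macrophage markers, 13 genes, summed to 672 to 933 CPM in Cx3cr1 HA and 19.0 to 30.4 CPM in Sall1 HA, where Lyve1, Cd209b and Cd36 were at 0. Their part in the levels of the 8 genes was not tested.

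Relatives of the markers did not share one pattern in HA. Of 30 genes of the same families, 19 were tested in the interaction, 7 of them higher, 6 lower and 6 not called, beside 18.5% called higher and 13.7% called lower among all genes. Aif1l, the paralog of Aif1, was at 83.5 ± 6.99 CPM in Sall1 HA, 5.87 ± 4.35 CPM in Cx3cr1 HA, and at 1.96 CPM or less in each sorted library. It rose over IgG in the Sall1 line by 3.25 ± 0.22 and was not called in the Cx3cr1 line (-1.10 ± 0.56, adjusted p = 0.0954), an interaction of 4.33 ± 0.52 against -3.15 ± 0.23 for Aif1. Sparcl1, the nearest relative of Sparc and an astrocyte marker, had 1047 ± 131 CPM in Sall1 HA and 144 ± 27.5 CPM in Cx3cr1 HA, an interaction of 2.97 ± 0.46. The SPARC-family gene Smoc1 (3.57 ± 0.47) and the olfactomedin-like gene Olfml1 (4.52 ± 0.64) were likewise higher in the Sall1 line. Olfml1, however, failed the low-count filter in Cx3cr1 HA over IgG and passed it in Sall1 HA over IgG. It thus entered the interaction through the line where it was high, so the direction of its call is no independent support. In contrast, another olfactomedin-like gene, Olfml2b, rose over IgG by 3.42 ± 0.43 in the Cx3cr1 line, with an interaction of -2.55 ± 0.62. Cryba4, a crystallin gene that lies 3301 bases from Crybb1, followed its neighbour. It gave 5.57 ± 0.27 in the Cx3cr1 line, 2.63 ± 0.37 in the Sall1 line and an interaction of -2.99 ± 0.47. Cd33, a lectin gene of the Siglech family, gave an interaction of -3.06 ± 0.55.

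Whether direct HA returned the markers at the level of sorted microglia was asked next. In the Cx3cr1 line the genes split: Tmem119 and Aif1 were higher in HA than in titled SortIP, Siglech was lower, and 5 were not called. Among all 8198 genes, 32.6% were called higher and 37.5% lower, so 2 of 8 and 1 of 8 lie below these shares. Of the 26 other homeostatic microglia genes, 8 were higher, 12 lower and 6 not called in this comparison. Siglech was at 2736, 2165, 2242 and 2733 CPM in titled SortIP against 616, 679, 631 and 450.4 CPM in HA, without overlap (-1.81 ± 0.18, adjusted p = 1.95e-08), as were 40.2% of all genes in that direction. Aif1 was at 994, 948, 1274 and 1102 CPM in titled SortIP and at 1474, 1682, 1606 and 1469.9 CPM in HA, all above (0.77 ± 0.16, adjusted p = 0.000258), as were 24% of all genes. For Tmem119, 2367, 2464, 2747 and 2963 CPM in titled SortIP overlapped HA through mouse 2 (0.89 ± 0.19, adjusted p = 0.000342). Olfml3 (0.38 ± 0.17, adjusted p = 0.0519), Selplg (0.34 ± 0.17), Crybb1 (0.21 ± 0.18), Sparc (0.12 ± 0.20) and Slc2a5 (-0.39 ± 0.25) did not pass. With the mouse as a block, Olfml3 was called higher (0.37, adjusted p = 0.0345). It also was without the HA library of mouse 1 (adjusted p = 0.0248) or 4 (adjusted p = 0.0304). Selplg was called higher without the HA library of mouse 3 (adjusted p = 0.0206), and Slc2a5 lower without the titled SortIP library of mouse 1 (-0.64, adjusted p = 0.0100).

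With groups by description, Siglech and Aif1 kept their calls, Tmem119 did not (0.21, adjusted p = 0.287), and Slc2a5 (-1.07, adjusted p = 6.42e-05) and Sparc (-0.39, adjusted p = 0.0376) were lower in HA. Then 31.9% of all genes were called higher and 36.2% lower. Adding both sorted libraries of each mouse gives the same sums under either label, though each library is weighted by its depth. Against these sums, chosen as an alternative after the data had been seen, Aif1 (0.76 ± 0.16, adjusted p = 0.000214) and Tmem119 (0.54 ± 0.18, adjusted p = 0.0116) were higher in Cx3cr1 HA. Siglech (-1.92 ± 0.17, adjusted p = 6.84e-10) and Slc2a5 (-0.73 ± 0.25, adjusted p = 0.0161) were lower, against 30.7% of 9478 genes called higher and 38.9% lower. Olfml3 (0.04 ± 0.16), Selplg (0.05 ± 0.15), Crybb1 (0.10 ± 0.18) and Sparc (-0.10 ± 0.16) were not called. After adjustment of all fold changes against these sums for transcript length, with the mouse as a block, Aif1 was at 0.03 (adjusted p = 0.874), Tmem119 at 0.30 (adjusted p = 0.0638) and Crybb1 at -0.65 (adjusted p = 0.000142). Olfml3 was then at -0.32 (adjusted p = 0.0482), while Siglech (-2.09) and Slc2a5 (-0.64) stayed lower.

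Expressed as a percentage of the same mouse's sorted CPM, HA of the Cx3cr1 line returned 156 ± 32.9% for Aif1 (152, 203, 131 and 136% in mice 1, 2, 3 and 4) and 131 ± 40.7% for Tmem119 (129, 79.3, 138 and 178%). Tmem119 fell below 100% in mouse 2 only. Crybb1 (96.1 ± 12.8%), Selplg (92.5 ± 14.1%), Olfml3 (91.9 ± 9.96%) and Sparc (83.5 ± 17.6%) had means under 100%, but each exceeded it in at least 1 mouse. Slc2a5 was at 55.7 ± 5.63% (63.8, 54.0, 50.7 and 54.3%) and Siglech at 23.9 ± 5.69% (23.2, 30.8, 24.7 and 17%), so every mouse returned less of both. Other genes of the Siglech family were also called lower in Cx3cr1 HA than in the sorted sums: Cd33 (-1.49 ± 0.22), Siglecf (-1.52 ± 0.36) and Siglece (-0.95 ± 0.28). Of all 9478 genes, 38.9% were called lower there, and Cd22 was not called (-0.53 ± 0.27, adjusted p = 0.0788). The glucose transporter genes Slc2a1 (0.58 ± 0.24) and Slc2a3 (2.05 ± 0.34), relatives of Slc2a5, were higher in HA. Slc2a6 (1.09 ± 0.39) was higher too, and Slc2a8 (0.05 ± 0.21) was not called. Of all 9478 genes, 30.7% were called higher. Against IgG of this line, however, Slc2a1 (-0.25 ± 0.26) and Slc2a6 (-0.17 ± 0.35) were not called. Slc2a3 was lower than IgG (-1.43 ± 0.26), and Slc2a8 was higher (1.11 ± 0.27). IgG returned between 1.38 and 2.12% of the sorted level for 7 genes, as means over the 4 mice, and 9.70 ± 2.31% for Sparc.

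In the Sall1 line all 8 genes were lower in direct HA than in SortIP, each without overlap, where 37.8% of 10494 genes were called lower and 36.3% were separate in that direction. Siglech fell furthest, from 2526, 2057, 2756 and 2477 CPM in SortIP to 45.9, 54.0, 46.5 and 48.6 CPM in HA (-5.49 ± 0.19, adjusted p = 8.54e-24). Slc2a5 (-4.66 ± 0.23), Selplg (-4.13 ± 0.18) and Crybb1 (-3.70 ± 0.21) followed, then Tmem119 (-3.34 ± 0.17), Olfml3 (-3.15 ± 0.18) and Aif1 (-2.73 ± 0.17). Sparc fell least, from 6548, 7008, 6340.4 and 6623 CPM to 2761, 3128, 2446 and 2416 CPM (-1.14 ± 0.15, adjusted p = 2.51e-08). Against the sums of both sorted libraries all 8 were lower as well (41.5% of 11675 genes), from -0.81 ± 0.14 for Sparc to -5.48 ± 0.16 for Siglech.

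Sall1 HA returned 47.9 ± 3.64% of the sorted Sparc level in the same mouse (43.7, 49.2, 46.6 and 52.3% in mice 7, 9, 17 and 21). Aif1 (12.9 ± 1.16%), Olfml3 (12.0 ± 1.41%) and Tmem119 (10.3 ± 0.410%) came back next, and Crybb1 (7.18 ± 1.11%), Selplg (6.08 ± 1.5%) and Slc2a5 (4.3 ± 1.03%) at less. Siglech, at 1.90 ± 0.337%, was close to the 1.31 ± 0.254% that IgG returned. IgG returned 11.1 ± 1.24% of the sorted Sparc level, and between 1.17 and 1.83% for the other 7 genes. In both lines, Siglech and Slc2a5 had the lowest percentages of the 8.

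**Figure D3:**
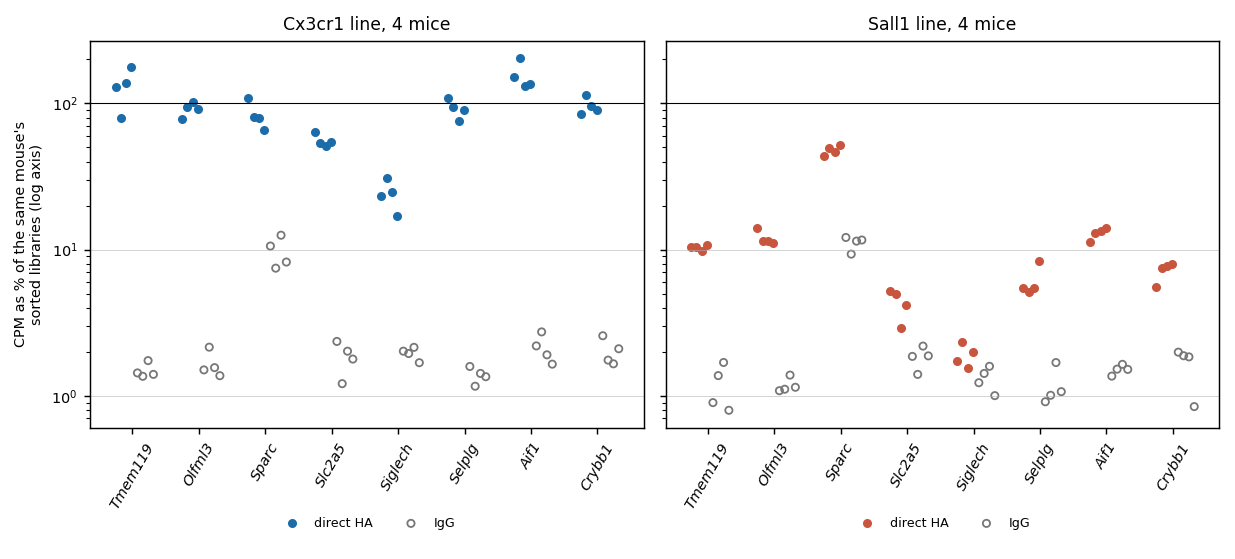
CPM in direct HA (filled) and IgG (open) as a percentage of the summed sorted libraries of the same mouse, per gene and mouse, on a log axis with a line at 100%. In the Cx3cr1 line (left) only Aif1 lies above 100% in all 4 mice and Siglech is lowest, and in the Sall1 line (right) all HA points lie below 100%, those of Sparc highest.

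Precipitation after sorting was compared with sorting alone, a contrast in which both sides start from sorted microglia. In the Sall1 line, where labels agree, 5 genes were higher in SortIP than in Sort, beside 5.45% of 8603 genes called higher. Tmem119 was at 2226, 2076, 1964 and 2566 CPM in Sort and 3351, 2631, 2736 and 2897 CPM in SortIP, all above (0.54 ± 0.12, adjusted p = 0.00742). Olfml3 was at 1675, 1895, 1657 and 1461 and 2062, 2439.5, 2337 and 2085 CPM, all above (0.56 ± 0.12, adjusted p = 0.00575). Selplg (0.53 ± 0.12, adjusted p = 0.00696) and Sparc (0.50 ± 0.13, adjusted p = 0.0148) were separate too, whereas Slc2a5 (0.58 ± 0.15, adjusted p = 0.0194) overlapped. Siglech (0.00 ± 0.13), Aif1 (0.02 ± 0.13) and Crybb1 (0.28 ± 0.20) were not called. The 4 genes without overlap stand beside 4.14% of all genes with all SortIP libraries above all Sort libraries. In a fit of all 8 groups none of the 5 passed (adjusted p from 0.0612 to 0.146), although all 5 had an unadjusted p under 0.05. Sparc lost its call without the Sort library of mouse 17 (adjusted p = 0.0626) or 21 (adjusted p = 0.0539). Slc2a5 lost it without the Sort library of mouse 7 (adjusted p = 0.0507) or 21 (0.0529) or the SortIP library of mouse 9 (0.0608) or 17 (0.0642). Astrocyte markers summed to 453 ± 248 CPM in Sall1 SortIP and 264 ± 55.1 CPM in Sall1 Sort. Neuronal markers summed to 256 ± 53.8 and 95.2 ± 74.9 CPM. Border macrophage markers went the other way, with 634 ± 75.2 and 749 ± 144 CPM. The part of such cells in these differences was not tested.

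In the Cx3cr1 line the direction of SortIP over Sort depends on which label is followed. By title, Olfml3 (-0.70 ± 0.12, adjusted p = 0.00203), Tmem119 (-0.69 ± 0.12, adjusted p = 0.00153), Selplg (-0.59 ± 0.11, adjusted p = 0.00300) and Sparc (-0.51 ± 0.15, adjusted p = 0.0281) were lower in SortIP, beside 6.46% of 8704 genes. By description the same libraries give the same values with the opposite sign, 4 genes higher. Tmem119 stood at 3925, 4201, 3469.6 and 4062 CPM in titled Sort and 2367, 2464, 2747 and 2963 CPM in titled SortIP. Olfml3 stood at 2171, 2026, 2144 and 2039 and 1293, 1383, 1665 and 1289.6 CPM, and Selplg at 7732, 6983, 6269.6 and 7192 and 4767, 5067, 5322 and 5178 CPM. For these 3 genes all titled SortIP libraries lay below all titled Sort libraries, as they did for 5.39% of all genes. Slc2a5 was not called by title (-0.68 ± 0.30, adjusted p = 0.178), but was lower with the mouse as a block (-0.69, adjusted p = 0.00187). Siglech (-0.19 ± 0.13), Aif1 (0.04 ± 0.15) and Crybb1 (-0.18 ± 0.15) were not called, as in the Sall1 line. Sparc overlapped between groups, and its call was lost without the titled Sort library of mouse 1 (adjusted p = 0.103), 3 (0.0854) or 4 (0.0572) or the titled SortIP library of mouse 1 (0.0806) or 4 (0.102).

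**Figure D4:**
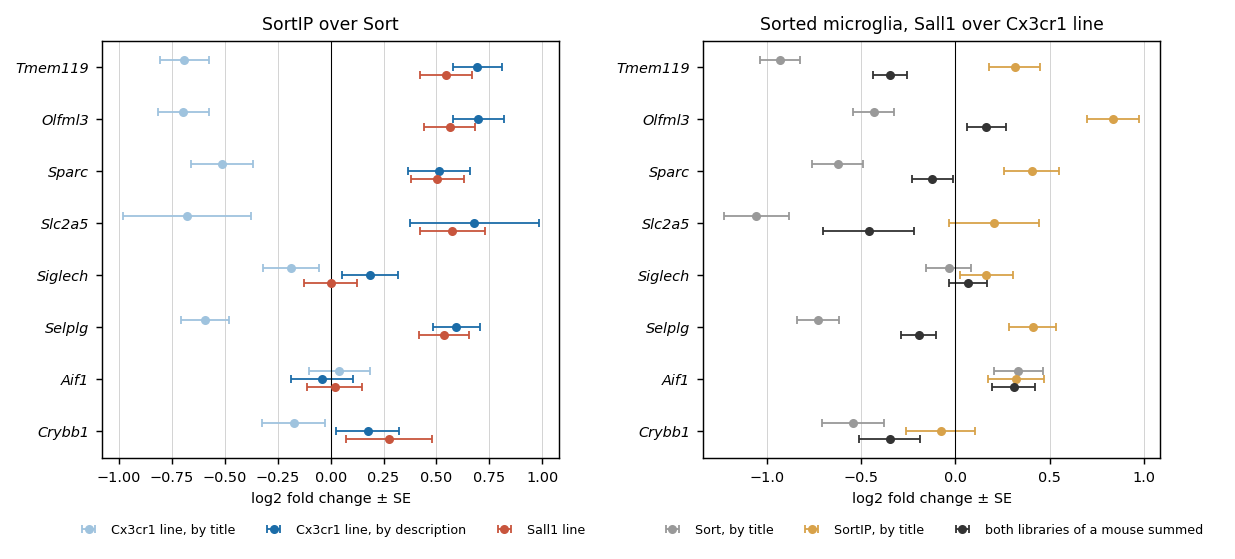
Left, log2 fold change of SortIP over Sort with bars of 1 SE, in the Sall1 line (red) and in the Cx3cr1 line grouped by title (light blue) or by description (dark blue), which mirror each other. Right, sorted microglia of the Sall1 over the Cx3cr1 line for Sort and SortIP by title and for both libraries of a mouse summed (dark), where no gene was called.

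Between sorted microglia of the 2 lines, genes of the 8 were called with groups by title and not by description. By title, 6 genes were lower in Sall1 than in Cx3cr1 Sort, beside 11.9% of 8688 genes called lower: Slc2a5 (-1.06 ± 0.17), Tmem119 (-0.93 ± 0.11), Selplg (-0.73 ± 0.11), Sparc (-0.62 ± 0.13), Crybb1 (-0.54 ± 0.16) and Olfml3 (-0.43 ± 0.11). Apart from Crybb1 these had all Sall1 Sort libraries below all titled Cx3cr1 Sort libraries, as 8.81% of all genes did. Crybb1 lost its call without the titled Cx3cr1 Sort library of mouse 2 (adjusted p = 0.0826) or 4 (0.0700) or the Sall1 Sort library of mouse 9 (0.0502) or 17 (0.0625). In SortIP 2 genes were higher in the Sall1 line, Olfml3 (0.84 ± 0.14) and Selplg (0.41 ± 0.13, adjusted p = 0.0405), beside 5.79% of 8552. Both were without overlap, as were 4.49% of all genes in that direction. The call of Selplg was lost without any 1 of 7 of the 8 libraries, the exception being titled Cx3cr1 SortIP of mouse 3, with adjusted p up to 0.120. By description edgeR called 0 of the 8 in either comparison, beside 1.49% of genes called in Sort and 1.11% in SortIP. An unadjusted p under 0.05 was reached in each by 3 of the 8, beside 1003 of 9292 genes in Sort and 763 of 8321 in SortIP. Markers of border macrophages moved with the line in the sorted libraries. The 13 genes summed to 571 to 901 CPM in Sall1 Sort and 554 to 732 CPM in Sall1 SortIP, and to 335 to 453 and 331 to 426 CPM in titled Cx3cr1 Sort and SortIP, without overlap between lines. By title, 4 of the 4 tested were higher in Sall1 Sort, beside 1036 of 8688 genes called higher. The most abundant were at 3.02 ± 0.37 (the mannose receptor gene Mrc1), 2.29 ± 0.53 (Pf4) and 0.46 ± 0.13 (Stab1). In SortIP 2 of the 2 tested were higher, Mrc1 (2.93 ± 0.28) and Stab1 (0.66 ± 0.14), beside 5.79% of all genes. Between titled SortIP and Sort of the Cx3cr1 line only 2 of the 13 passed the low-count filter. A gene can pass it through the Sall1 libraries alone, so the 4 of 4 in Sort is no independent support. Markers of monocytes, neutrophils and lymphocytes summed to 15.4 to 72.3 CPM in Sall1 Sort and 6.61 to 41.3 CPM in titled Cx3cr1 Sort. The part of such cells in the levels of the 8 genes was not tested.

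Adding the 2 sorted libraries of every mouse gives the same sums under either label, but weights each library by its depth. Titled Cx3cr1 Sort had 677423 to 1058912 gene counts and titled SortIP 746794 to 1808789. Sall1 Sort had 761172 to 1453481 and Sall1 SortIP 249881 to 980218. If the titles are right, the lines thus mix Sort and SortIP in different proportions. With the sums, edgeR called 0 of 8, beside 2.67% of 9966 genes called in either direction. An unadjusted p under 0.05 was reached by 2 of the 8, beside 1303 of the 9966 genes. Tmem119 was at -0.35 ± 0.09 (adjusted p = 0.0561), Aif1 at 0.31 ± 0.12, Slc2a5 at -0.46 ± 0.24, Crybb1 at -0.35 ± 0.16 and Selplg at -0.20 ± 0.09. Olfml3 (0.16 ± 0.11), Siglech (0.07 ± 0.10) and Sparc (-0.12 ± 0.11) were nearest to 0. For comparison, the HA libraries of the lines differed by -3.80 for Siglech and -4.34 for Selplg.

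The isotype background of the 8 genes was compared between lines as a control. edgeR called 0 of the 8, and 1 of 11593 genes in all (0.00863%), and DESeq2 called 0 of the 8 and 2 genes in all. An unadjusted p under 0.05 was reached by 4 of them, Tmem119 (-0.70 ± 0.22), Crybb1 (-0.80 ± 0.31), Selplg (-0.48 ± 0.19) and Siglech (-0.50 ± 0.23), beside 367 of the 11593 genes. Tmem119 was at 41.8, 47.0, 52.5 and 46.9 CPM in Cx3cr1 IgG and 24.1, 31.6, 38.5 and 21 CPM in Sall1 IgG, without overlap, a separation in that direction found for 0.75% of all genes. Sparc, at 603 ± 157 and 623 ± 97.7 CPM, differed between lines by less than its spread (0.04 ± 0.20). Per kilobase, its Sall1 IgG level of 237 ± 37.2 CPM per kb was above the Sall1 HA level of each of the other 7 genes, the next being Aif1 at 186 ± 8.66.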

How the data were processed

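The authors deposited raw exon counts per gene for 32 libraries; the tools HISAT 0.1.5, HOMER and bcl2fastq and the build mm9 are named in the submitters' processing notes. Strand and multi-mapped reads were not given in the sources used here. Groups follow the sample titles. Each of the 11 comparisons was fitted with edgeR 4.0.16 (R 4.3.3; TMM factors, default low-count filter with a minimum count of 10, robust quasi-likelihood test) on the libraries compared, with Benjamini-Hochberg adjustment over all genes tested, and calls at an adjusted p of 0.05. CPM is a count divided by the library total of gene counts. The SE given with an edgeR fold change was derived from its test. It is the absolute log2 fold change divided by the square root of the F statistic. The fit was tested on simulated data. DESeq2 1.42.0 was an alternative. By the labels, 1 mouse gave the same-numbered libraries. Over 48 such pairs, the median correlation of deviations from group means was 0.0380 (-0.108 to 0.222), against -0.0157 over 144 other pairs. Named genes are the 8 members, relatives, reference genes, the most abundant genes of marker lists, the nearest neighbours and the most correlated genes; genes named for being at 0 or in counts of 5 or fewer were chosen after their values were seen. Some genes of the lists are not reported here. Members and lists were chosen with earlier results of these data known.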

Additional observations from a re-analysis of the deposited data

Results flagged for a closer look

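In 3 of 64 sets of 4 libraries of 1 gene and group, 1 library stood apart from the other 3 by the 95% limit of Dixon's test, which chance exceeds in about 1 set in 20. The Sall1 IgG library of mouse 17 had 8.36 CPM of Slc2a5, against 5.66 to 5.68 CPM in the others, and 76.3 CPM of Selplg, against 49.8 to 53.9 CPM. The Sall1 SortIP library of mouse 9 had 962 CPM of Aif1, against 1266 to 1296 CPM. The enrichment of HA over IgG differed between the lines for all 8 genes in edgeR's test of the interaction. The difference, Sall1 minus Cx3cr1, was -3.80 for Slc2a5, -3.74 for Selplg, -3.39 for Tmem119, -3.33 for Crybb1, -3.17 for Siglech, -3.15 for Aif1, -2.51 for Olfml3 and -1.05 for Sparc, with adjusted p from 2.53e-10 (Aif1) to 0.00484 (Sparc).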

How the results depend on the processing

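Values per gene kept their direction and side of the threshold in 120 of 120 alternative values for Cx3cr1 HA over IgG, 119 of 120 for Sall1 HA over IgG, 184 of 184 for the interaction, 112 of 112 for Sall1 over Cx3cr1 HA and 128 of 128 for Sall1 HA over SortIP. They did so in 120 of 136 for Cx3cr1 HA over SortIP, 113 of 128 for Cx3cr1 SortIP over Sort and 107 of 120 for Sall1 SortIP over Sort. For Sall1 over Cx3cr1 it was 105 of 128 in Sort, 113 of 128 in SortIP and 112 of 112 in IgG. The cause of the changes below was not tested, beyond the construction of each alternative. In Cx3cr1 HA over SortIP, 2 of the 8 genes were lower with library totals, with no low-count filter, after length adjustment with the replicate block and against sorted sums, 4 were higher with DESeq2, and 1 was higher with the length adjustment and block. By description 1 was higher and 3 lower. Against titled SortIP, Crybb1 was at -0.57 with the length adjustment and block, and Sparc at -0.39 by description. By description Cx3cr1 SortIP over Sort gave 4 higher and 0 lower (Tmem119 0.69, Olfml3 0.70, Sparc 0.51, Selplg 0.59). There, by title, Sparc lost its call in the fit of all 8 groups (adjusted p = 0.0942), with library totals (adjusted p = 0.0678) and after length adjustment with the block (adjusted p = 0.0708), and Slc2a5 was called lower with no filter (adjusted p = 0.00434) and after that adjustment (adjusted p = 0.00155). In Sall1 SortIP over Sort, 3 genes were higher with library totals and 0 in a fit of all 8 groups. Between lines in Sort, the fit of all 8 groups lost the calls of Olfml3 (adjusted p = 0.101) and Crybb1 (adjusted p = 0.0707), and library totals that of Crybb1 (adjusted p = 0.0764). There 1 gene was higher with library totals or no filter, and 0 were lower by description (Olfml3 0.27) and with mouse sums (Olfml3 0.16). In SortIP, 1 was higher with library totals, no filter or all 8 groups, and 0 by description (Selplg -0.19) and with mouse sums (-0.20). Over all genes, the fit of all 8 groups called 537 in Cx3cr1 SortIP over Sort against 1115, 538 in Sall1 SortIP over Sort against 906, 1266 in Sort between lines against 2074, and 2 in IgG, as DESeq2 also did. By description 138 were called between lines in Sort and 92 in SortIP, and 266 with mouse sums.

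Leaving out 1 library each gave 1 to 2 of the 8 genes lower in Cx3cr1 HA over SortIP, 3 to 5 higher in Sall1 SortIP over Sort, 0 to 1 higher between lines in Sort and 1 to 2 in SortIP. Over all genes it gave 456 to 1386 calls in Cx3cr1 SortIP over Sort, 393 to 785 in Sall1 SortIP over Sort, 472 to 1039 in SortIP between lines and 0 to 1 in IgG (edgeR called 0 without the Cx3cr1 IgG library of mouse 1, with an unadjusted p under 0.05 for 294 genes). The replicate block, a term for the mouse, changed the call of Olfml3 in Cx3cr1 HA over SortIP (0.37, adjusted p = 0.0345) and of Slc2a5 in Cx3cr1 SortIP over Sort (-0.69, adjusted p = 0.00187) and of no other of the 8. Library totals without TMM moved the median of all genes by over 0.1 (log2) in several comparisons, for instance from -0.28 to -0.68 in Cx3cr1 HA over IgG. They moved the share of calls that were higher from 44.3 to 31.2% there (33.7% with all 8 groups), from 49.4 to 34.8% in Sall1 HA over IgG, from 49.6 to 76.7% in Cx3cr1 SortIP over Sort and from 51.8 to 21.5% in Sall1 SortIP over Sort. Between lines the share moved from 50.0 to 66.3% in Sort and from 53.2 to 21.9% in SortIP, and with all 8 groups from 51.4 to 65.3% in HA. Counts in Sall1 IgG were low, 4 to 25 reads per library for Slc2a5 and 8 to 28 for Crybb1.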

Other observations

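The genes whose levels followed the markers most closely over the 32 libraries were found by Pearson correlation of log2(CPM + 1) among 9969 genes with a mean of at least 10 CPM. The libraries share mice, groups and depth differences, so these values only describe. Tmem119 was followed most closely by Rab3il1 (r = 0.995), Selplg by Abi3 (0.997), Siglech by Lair1 (0.995) and Slc2a5 by Fermt3 (0.991). Olfml3 was followed by Tnfaip8l2 (0.994), Aif1 by Trem2 (0.994), a lipid-sensing receptor gene of microglia, and Crybb1 by Vav1 (0.992). Sparc had the weakest best match, Selenop (0.980), which encodes a selenium transport protein. Among the 8 genes themselves r ranged from 0.875 (Sparc and Siglech) to 0.991 (Tmem119 and Selplg).

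Lair1, which encodes an inhibitory collagen receptor, was picked as the closest match of Siglech over these same libraries. Its sharing of the Siglech pattern follows from that choice. It had 131 ± 23.8 CPM in Cx3cr1 HA against 598 ± 54.8 CPM in titled Sort and 597 ± 95.4 CPM in Sall1 SortIP. In Sall1 HA it was at 13.3 ± 2.55 CPM. Selenop had 2534 ± 627 CPM in Cx3cr1 HA, and 1216 ± 219.7 CPM was its level in Sall1 HA. Of the genomic neighbours, Lst1, 9093 bases from Aif1, had 417 ± 53.6 CPM in direct HA of the Cx3cr1 line and 25.6 ± 3.87 CPM in that of the Sall1 line. Coro1c, 11937 bases from Selplg, was at 226 ± 53.5 and 134 ± 23.5 CPM, against 199 ± 17.5 and 178 ± 14.1 CPM in IgG of the same lines. Cryba4, beside Crybb1, was at 189 ± 44.9 and 16.6 ± 4.63 CPM in the HA groups. Slc2a7, beside Slc2a5, had no read in any library.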
